A study of Mus musculus with 12 samples.

Results

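The 130 rows described here are those with the highest counts in an RNA-seq table of mouse bone-marrow-derived macrophages. They were chosen from 24552 rows by their counts: a mean raw count of 500 or more over the 12 libraries and a ratio of M1 to M0 summed counts between 0.1 and 20. Of the 157 rows with such a mean, 6 had a ratio outside those limits, 9 carried a symbol ending in os and 12 were left out by name. The macrophages came from Gpr31b knockout (KO) and wild-type (WT) mice. Gpr31b codes for a G protein-coupled receptor of a lipoxygenase product. Each genotype was studied after LPS with IFN-γ (M1) and without stimulation (M0), which gave the groups KO M1, WT M1, KO M0 and WT M0 with 3 libraries each. The labels give no dose, duration, strain, age or construct of the knockout, and they do not say whether the libraries of a group come from separate animals. If they do not, p-values measure only a technical spread.

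LPS acts through Toll-like receptor 4 and the NF-κB transcription factors, and IFN-γ through its own receptor. The GAS and ISRE elements are DNA motifs found in promoters of interferon-responsive genes. Both stimuli together give the classically activated, microbe-killing state of macrophages. Neighbouring genes on opposite strands often share bases where their ends meet, and in such a stretch only the strand of a read tells which gene it came from. The libraries were strand-specific, per the labels' protocols. The strand setting of the counting was not given in the sources used here, so each value below belongs to a row of the table, and the gene on the opposite strand is named beside it.

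The share of rows with an opposite-strand exon was highest among the rows with the highest counts. In GENCODE M21 (build GRCm38) there was 1 gene for the symbols of 124 of the 130 rows, and 118 of these 124 rows (95.2%) shared 20 or more exonic bases with a gene on the other strand. Of the other rows at a mean of 500 or more, 95.8% did (23 of 24). The share was 88.8% of rows with a mean of 100 to under 500 counts (316 of 356), 65.8% of those with 10 to under 100 (822 of 1249), 28.4% of those above 0 and under 10 (2709 of 9547), and 12.5% of rows at 0 (1583 of 12661). The median exonic length was 4417 bases for the 124 matched rows and 2914 bases for the other rows at 500 or more. It was 3940.0, 4129 and 4305 bases for the bins from 100 to under 500 counts down to those above 0 and under 10. For rows at 0 it was 2399 bases. The part of length in the share was not tested. Since longer rows collect more counts, counts are not compared between rows as expression.

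**Figure D1:**
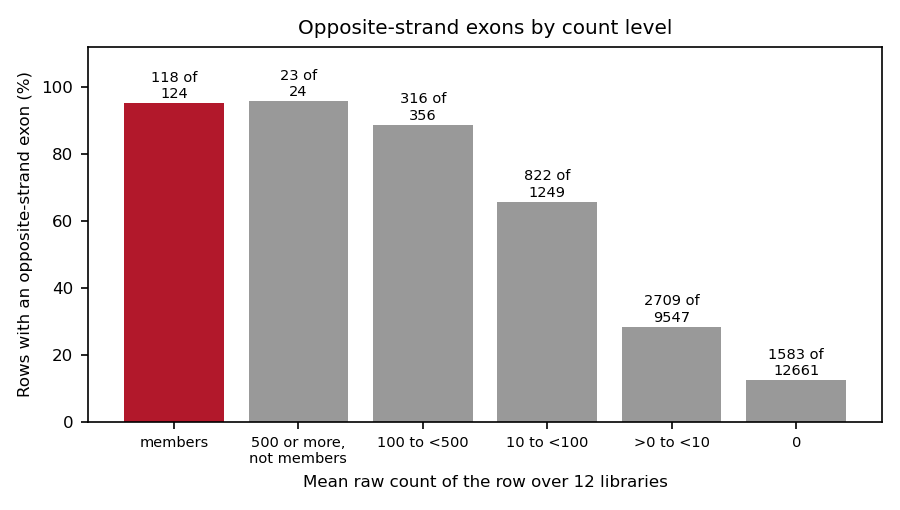
Share of rows (%) with 20 or more exonic bases shared with an opposite-strand gene, by the row's mean raw count over the 12 libraries. The number of such rows and of matched rows stands above each bar. The share was 95.2% for the highest-count rows (red) and 12.5% for rows at 0.

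With 2 more rows placed through RefSeq, 120 of the 130 had such an exon, and the opposite gene with the longest overlap was protein-coding in 118. The rows themselves were mostly protein-coding genes (100), followed by antisense RNAs (17). The overlap had a median of 739 bases, from 65.0 to 4590.0, and made up a median of 21.2% of the row's exonic bases. In 95 rows the pair met tail to tail, in 16 head to head, in 6 the row's gene lay inside the opposite gene and in 3 it was the other way round. On the opposite gene the shared bases lay mostly on the 3′ UTR side in 74 rows, in coding sequence in 26 and on the 5′ UTR side in 8. In 30 rows more than 1 opposite gene qualified. For many of these only the gene with the longest overlap is named below.

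The remaining 10 rows had no such exon on the GENCODE strand. The row of D730005E14Rik shared 676 exonic bases with Apobec3 on the strand that RefSeq gives it, which is not the strand in GENCODE. RefSeq spans of the Gm45916, Gm19897 and Gm10677 rows covered exons of Slc16a6, Sirt2 and Cadm1. The 3′ ends of Tmem206, Rrbp1, Bcap31 and Vps26b lay 1061, 4071, 3676 and 435 bases past the 3′ ends of Ppp2r5a, Dstn, Slc6a8 and Thyn1. For Basp1, a membrane-bound growth-cone protein gene, neither an exon nor an end within 5000 bases was found, and LOC105246506 could not be placed.

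Stretches of coding sequence that a row shares with its opposite gene illustrate the overlap: the same bases, read in either direction, belong to 2 genes. The stretches shown belong to 3 rows among those with the highest M1 to M0 ratio and 3 among those with the lowest. They lie on GRCm38 at chr8:27143332-27143391 (Rab11fip1, minus strand), chr16:35938771-35938800 (Dtx3l, minus), chr17:55956247-55956276 (Ebi3, plus), chr10:111985592-111985621 (Glipr1, minus), chrX:7594097-7594126 (Ccdc22, minus) and chr5:122238507-122238536 (Hvcn1, plus). Each is read from GENCODE transcripts, 5′ to 3′ on the strand of the gene named, and capitals mark bases that lie in an exon of both genes. For the Ebi3 stretch the strand of the Gm16712 row is printed too.
Rab11fip1 (row 4933416M07Rik): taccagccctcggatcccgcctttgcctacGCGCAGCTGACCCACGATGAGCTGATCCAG
Dtx3l (row Parp9): CGAGATATACTTCCAGAGCCGGGCCTCGGG
Ebi3 (row Gm16712): TGGCATCCCCCTGCTTCCTGGCCCTTCCCG
Gm16712, same stretch: CGGGAAGGGCCAGGAAGCAGGGGGATGCCA
Glipr1 (row Krr1): CTTTCTCATTGCTAAGTCGGTTCTCCTATT
Ccdc22 (row Foxp3): GAAGATCTGTGAGGACTACCGAGCCCTTCG
Hvcn1 (row Tctn1): GATCCTGGATGCCTTCGTGGTGGTGGTGTC

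**Figure D2:**
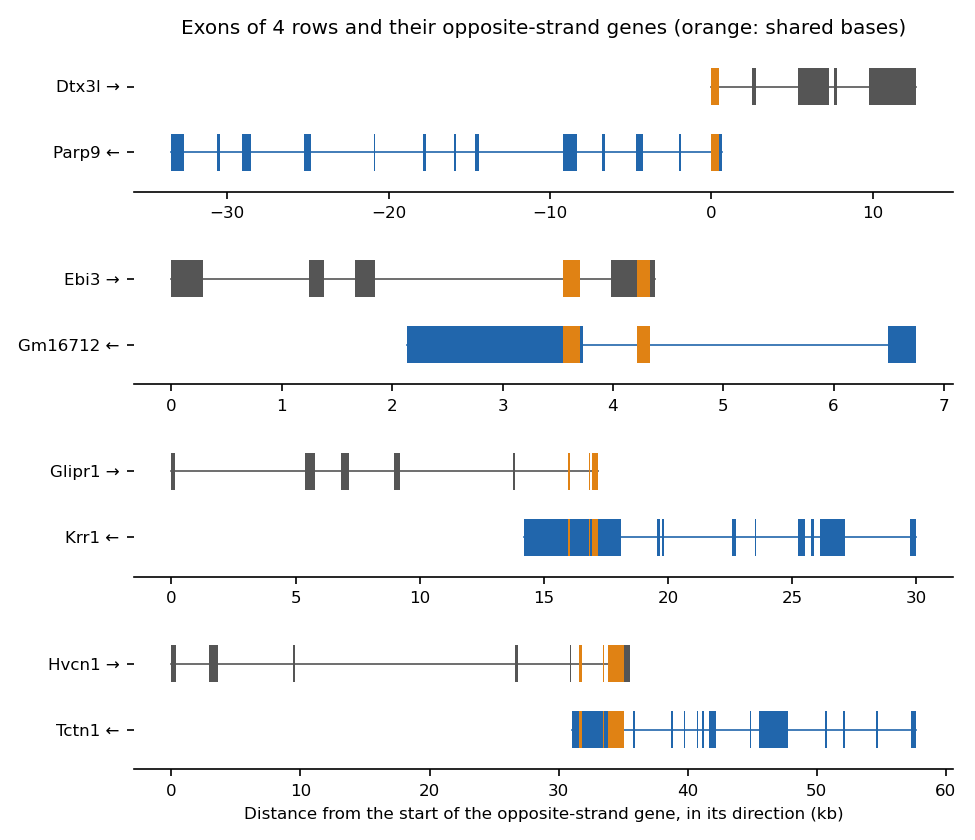
Exons (boxes) of 4 rows (blue) and their opposite-strand genes (grey), drawn to scale by distance in kb from the start of the opposite gene, with shared exonic bases in orange and arrows for the direction of transcription. Parp9 and Dtx3l share 458 bases at their starts, and the other 3 pairs share 270 (Gm16712 and Ebi3), 352 (Krr1 and Glipr1) and 1574 bases (Tctn1 and Hvcn1) towards the end of the opposite gene.

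The opposite gene's own row usually held fewer counts than the member. Of the 118 opposite genes with a row, 55 had a mean under 10 counts, the median was 12.9, and 114 had a lower mean than the row opposite them. The members were chosen for high counts, so a lower opposite row follows largely from the rule. Among all matched rows of the table, 12661 were at 0 and 9547 above 0 and under 10. Nothing is therefore read from these numbers. The Ppib row, for cyclophilin B, averaged 2 counts beside 6919.6 in the Snx22 row opposite it. In 8 cases the opposite gene's row also reached a mean of 500. Crbn, the cereblon gene, and Trnt1 were both among the 130 and opposite each other, with means of 913 and 832 counts, as were Cog5 and Hbp1 (757 and 569.8) and Ormdl2 and Dnajc14 (1059.6 and 1018).

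Library totals ran from 372878 to 585465 counts, and the 130 rows held 38.2% to 41.1% of them. The lowest count of such a row in a library was 115 and the highest 18993. The median of their mean counts was 873. Just inside the threshold were Pigf (503), F420014N23Rik (507) and Eme1 (510.0), and just outside were 1700023D09Rik (499), Gm16861 (498) and Orc3 (490.2). The rows outside the ratio limits had ratios of 340.0 (Mir6381), 35.8 (Gm14023), 0.0926 (Nt5dc2), 0.0675 (Focad), 0.0253 (Card14) and 0.00341 (Cd163), and the members closest to the limits were 4933416M07Rik at 6.92 and LOC105246506 at 0.246. The Gpr31b row held 2 counts in each WT M1 library and 0 in the other 9, too few to check the genotypes. As for cell types, all 8 macrophage marker rows held counts, with a summed level of 257 to 408 CPM in KO M1, 268 to 391 in WT M1, 368 to 751 in KO M0 and 548 to 617 in WT M0. The Lyz2 row held the most of these, 1111 counts in all. Of the markers of other cells, 5 of 6 for neutrophils, 4 of 5 for T cells, 4 of 5 for B cells, 3 of 4 for mast cells, 3 of 4 for erythroid cells, 2 of 5 for stroma and 2 of 4 for dendritic cells were at 0 in all libraries. Rows at 0 were common in this table (12661 of the matched rows), so a marker row at 0 does not show that a cell type was absent. The dendritic cell sum was 428 to 607 CPM in KO M1, 463 to 549 in WT M1, 20.8 to 33.0 in KO M0 and 27.6 to 47.9 in WT M0, with 1393 counts in all in the Xcr1 row, and its part in the M1 to M0 differences was not tested. In KO M1 and in WT M1 this range lay above that of the macrophage sum. No marker gene lay opposite one of the 130 rows. In bulk samples, fewer cells of a type and less RNA per cell cannot be told apart.

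Levels are given as CPM, counts scaled to library size, with TMM factors that align the libraries by the bulk of their rows. The TMM factors were 0.806 to 0.871 in M1 and 1.15 to 1.21 in M0, so the choice of scale moves every M1 to M0 ratio by about the same amount. Since the ratio was part of the rule, M1 against M0 is described without a test.

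The 2 rows with the highest counts were both higher in M1 on the TMM scale. The 3110062M04Rik row holds Cyren, a regulator of DNA end joining, and lies opposite Tmem140, a transmembrane protein gene. It had 35597, 33195 and 34603 CPM in KO M1, 38169, 36509.5 and 42389.8 CPM in WT M1, 11597, 12044 and 11393 CPM in KO M0, and 11192, 11043 and 12271 CPM in WT M0. All 6 M1 libraries lay far above the 6 M0 libraries, a log2 ratio of 1.66. The Snx22 row, of a sorting nexin gene opposite Ppib, had 18648, 17429 and 17035 CPM in KO M1, 18053, 18951 and 20419.8 CPM in WT M1, 13890.5, 12379.7 and 12101 CPM in KO M0, and 13648, 14158 and 15505 CPM in WT M0. On this scale the states did not overlap and the log2 ratio was 0.44, whereas the ratio of summed raw counts of the Snx22 row was 0.98.

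Other rows of high count went either way. The Sla2 row, for a Src-like adaptor that restrains antigen receptor signals, lies opposite Rab5if and averaged 22264 ± 1239.5 CPM in KO M1, 25626 ± 1332 in WT M1, 5831 ± 297 in KO M0 and 6033 ± 385 in WT M0 (SD, n = 3). Its log2 ratio of 2.01 was the largest among the 20 rows of highest count. The Map3k12 row (opposite Pcbp2, a poly(C)-binding protein gene) stood at 0.65, the Serinc4 row (opposite Serf2 and Hypk) at 0.56, the Zfp385c row (opposite Nkiras2, a Ras-like inhibitor of NF-κB) at 0.90, the Cyfip1 row (opposite the magnesium transporter gene Nipa2) at 0.74 and the 9130221H12Rik row (inside the kinase gene Gsk3a) at 0.75. Log2 ratios from 0.29 to 0.58 were those of 1110051M20Rik (opposite Arfgap2, 0.29), Cdip1 (opposite the constitutive haem oxygenase gene Hmox2, 0.45), Degs2 (opposite Evl, 0.58) and Gm45916 (over Slc16a6, 0.33). They were near 0 for Ptger1, a prostaglandin E2 receptor gene (-0.10), Hdgfl3 (opposite Tm6sf1, 0.05) and Tmem206, a proton-activated chloride channel gene (0.03). Lower in M1 on average, with overlap of the M1 and M0 libraries, was 4930404N11Rik (inside Mfsd12, a lysosomal cysteine transporter gene, -0.39). Lower without overlap were 4930473A02Rik (opposite the receptor phosphatase gene Ptpra, -0.54), 0610039K10Rik (opposite Serinc3, -0.81), Tctn1 (-1.34) and Krr1 (-1.38).

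Over all 130 rows the median log2 ratio of M1 to M0 was 0.31, against -0.03 over the 2333 rows that passed the low-count filter. All 130 passed it. There were 91 rows above 0 and 39 below. At least 2-fold higher in M1 were 27 rows (20.8%), where 22.9% of all tested rows were, and at least 2-fold lower were 7 (5.38%), where 22.7% were. The 6 M1 libraries all lay above the 6 M0 libraries in 66 rows (50.8%, against 20.8% of tested rows) and all below in 19 (14.6%, against 18.1%), and the states overlapped in 45. The rule used these ratios, so nothing is read from these shares. With library size alone as the scale, the median of all tested rows was -0.52 and that of the 130 rows -0.18, with 52 higher and 78 lower, 18 at least 2-fold higher and 15 at least 2-fold lower. The 39 rows whose direction changed had log2 ratios of at most 0.48 in size, so every direction given here is relative to the TMM scale.

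**Figure D3:**
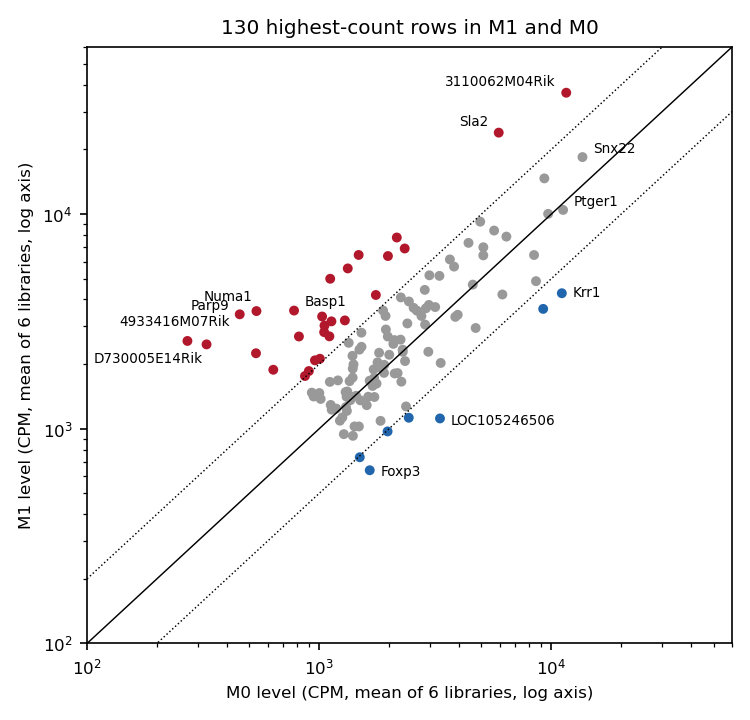
Mean level of each of the 130 rows in the 6 M1 libraries (vertical) and the 6 M0 libraries (horizontal), in TMM-scaled CPM on log axes. The solid line is equality and dotted lines are 2-fold differences, with 27 rows (red) at least 2-fold higher in M1 and 7 (blue) at least 2-fold lower.

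The 4933416M07Rik row, an antisense RNA inside Rab11fip1, whose product acts with Rab11 on recycling endosomes, had 2591, 2346 and 2851 CPM in KO M1, 2568, 2552 and 2472 CPM in WT M1, 225, 329 and 269 CPM in KO M0, and 245, 288 and 269.8 CPM in WT M0. Every M1 library was several-fold above every M0 library, and the log2 ratio was 3.24, the highest of the 130, both in KO and in WT. The D730005E14Rik row, over the start of Apobec3, a cytidine deaminase that restricts retroviruses, had 2487, 2185 and 2346 CPM in KO M1, 2412, 2619 and 2775 CPM in WT M1, 261, 411 and 446 CPM in KO M0, and 334, 283 and 229 CPM in WT M0. Its log2 ratio was 2.65 in KO and 3.21 in WT.

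The Parp9 row covers an interferon-induced ADP-ribosyltransferase gene and lies head to head with Dtx3l, the ubiquitin ligase that acts in a complex with it. It had 3518, 3130.4 and 3287 CPM in KO M1, 3865, 3607 and 3061 CPM in WT M1, 351, 532 and 551 CPM in KO M0, and 429, 448 and 418 CPM in WT M0. The log2 ratio was 2.91. In the Numa1 row, of a spindle protein gene, the shared stretch is 80.0 bases of the 3′ UTR of Il18bp, which codes for the soluble decoy of interleukin-18. It had 3339.8, 3725 and 3583 CPM in KO M1, 3689.7, 3658 and 3197 CPM in WT M1, 525, 399 and 499 CPM in KO M0, and 637, 671 and 489 CPM in WT M0, a log2 ratio of 2.73 with no overlap of the states.

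The Psd row, of an exchange factor gene for ARF6, ends over the 3′ UTR of Nfkb2, the gene of the NF-κB precursor p100. It had 4918, 4039 and 4857 CPM in KO M1, 5352, 4479 and 6334 CPM in WT M1, 931, 1292 and 1551 CPM in KO M0, and 1044, 972 and 901 CPM in WT M0. The Gm16712 row is an antisense RNA over the end of Ebi3, a subunit of interleukin-27. It shares 270 exonic bases with Ebi3 and nearly as many, 248, with another opposite gene, Yju2. It had 5788, 5084 and 7014 CPM in KO M1, 6961, 5947 and 7894 CPM in WT M1, 1345, 1758 and 1884 CPM in KO M0, and 1359, 1140.4 and 1385 CPM in WT M0. The log2 ratios were 2.17 and 2.13, and M1 stood above M0 in both genotypes.

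The other rows of the 12 highest ratios had values between 1.72 and 2.19. Basp1, with no opposite gene found, averaged 3530.2 ± 637 CPM in KO M1, 3572 ± 755 in WT M1, 706 ± 67.6 in KO M0 and 852 ± 184 in WT M0, a log2 ratio of 2.19. The E230013L22Rik row shares the promoter region of Rab20, a small GTPase gene of phagosomes, and stood at 2.07, as did the row of Fancl, the ubiquitin ligase gene of the Fanconi anaemia pathway, opposite the kinase gene Vrk2. Ccdc167, opposite the mRNA cap methyltransferase gene Cmtr1, stood at 1.85. Nrp, a RefSeq symbol that was placed at the GENCODE gene Alkbh1, lies there opposite the mitochondrial RNA-binding protein gene Slirp and stood at 1.72.

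**Figure D4:**
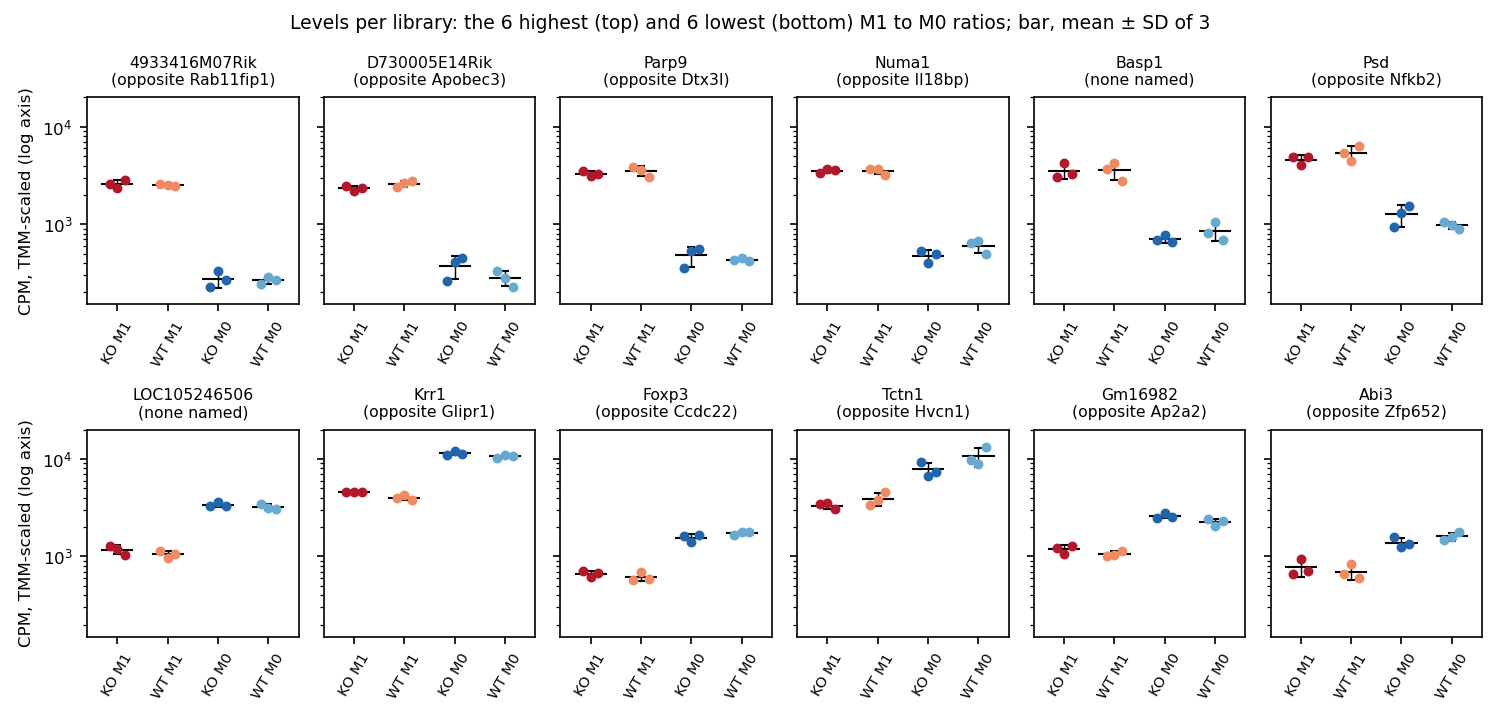
Levels of 12 rows in each library (points, TMM-scaled CPM, log axis), with mean and SD of 3 libraries (black), for the groups KO M1, WT M1, KO M0 and WT M0. In the top rows, led by 4933416M07Rik (log2 ratio 3.24), all M1 libraries lie above all M0 libraries, and in the bottom rows, led by LOC105246506 (-1.57), all lie below.

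Promoters of these opposite genes were searched for the ISRE (GAAANNGAAA), the GAS element (TTCNNNGAA) and a κB site (GGGNNTTTCC) on both strands of the 250 bases before the start, in RefSeq's table for GRCm38.p6. The letters occur in 2.98%, 7.02% and 1.41% of its 32851 promoters. Of the 10 opposite genes of the highest ratios with an entry, Apobec3 had an ISRE match, and Nfkb2 had a GAS and a κB match before 1 start and a κB match before another. Of the 8 such genes of the lowest ratios, 0 had a match. A match is a description of letters, not a site of binding. Capitals mark the matches in the promoter of Apobec3 at chr15:79892158-79892407 (plus strand, the ISRE on the reverse strand beginning at -140) and in that of Nfkb2 at chr19:46304487-46304736 (plus strand, the GAS match beginning at -148 and the κB match at -11).
Apobec3: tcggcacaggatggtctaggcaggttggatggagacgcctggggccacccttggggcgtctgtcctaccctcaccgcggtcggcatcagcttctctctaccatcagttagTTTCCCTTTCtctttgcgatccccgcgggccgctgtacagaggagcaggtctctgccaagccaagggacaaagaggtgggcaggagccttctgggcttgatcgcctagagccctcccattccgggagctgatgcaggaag
Nfkb2: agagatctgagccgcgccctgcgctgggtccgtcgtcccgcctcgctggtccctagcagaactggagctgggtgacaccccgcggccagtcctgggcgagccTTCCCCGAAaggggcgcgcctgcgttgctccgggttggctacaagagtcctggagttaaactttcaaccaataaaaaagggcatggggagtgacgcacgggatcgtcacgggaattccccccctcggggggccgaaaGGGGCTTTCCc

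The remaining rows at least 2-fold higher in M1 had log2 ratios between 1.02 and 1.70. They lay opposite the hormone-sensitive lipase gene Lipe (4732471J01Rik, 1.70), BC028528 (C920021L13Rik, 1.69), the chaperone gene Dnaja1 (Gm6297, 1.57), the lamina-associated gene Tor1aip1 (Tor1aip2, 1.56), Crbn (Trnt1, 1.52), 1700096J18Rik and Gna13 (Gm11696, 1.49), Prelid1 (Mxd3, 1.42), Vcpip1 (1700034P13Rik, 1.28), the ESCRT-III gene Ist1 (Pkd1l3, 1.26), Flywch1 and Kremen2 (9530082P21Rik, 1.12), the B-cell co-receptor gene Cd72 (Tesk1, 1.07), Hnrnph3 (Rufy2, 1.04) and Plod3 (Znhit1, 1.02). Rrbp1, a ribosome-binding protein gene of the endoplasmic reticulum past the end of the actin-severing gene Dstn, stood at 1.31. In each of these rows all M1 libraries were above all M0 libraries.

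Among the rows lower in M1, the unplaced LOC105246506 had 1287, 1195 and 1042 CPM in KO M1, 1146, 967 and 1061 CPM in WT M1, 3317, 3603 and 3280.2 CPM in KO M0, and 3456, 3157 and 3061 CPM in WT M0. Its log2 ratio of -1.57 was the lowest of the 130. The Krr1 row, of a ribosome assembly factor gene, lies opposite Glipr1, a secreted-protein gene of the CAP family. It had 4588, 4549.5 and 4551 CPM in KO M1, 3945, 4249.9 and 3776 CPM in WT M1, 11052, 12094 and 11359 CPM in KO M0, and 10211, 11022 and 10833 CPM in WT M0. Every M1 library lay below every M0 library in both rows, and Krr1 stood at -1.38.

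The Foxp3 row carries the name of the transcription factor of regulatory T cells and lies opposite Ccdc22, a gene of endosomal protein recycling. It had 704, 613 and 679 CPM in KO M1, 573, 686 and 589 CPM in WT M1, 1615, 1415 and 1648 CPM in KO M0, and 1655, 1779.8 and 1789 CPM in WT M0, a log2 ratio of -1.36. Of the 5 T-cell marker rows, Cd3e, Cd3g, Cd4 and Cd8a held no count in any library. The other, Lck, held 10 counts in all, and these lay in KO M0. Whether T cells added to the Foxp3 row was not tested. The Tctn1 row, of a gene of the ciliary transition zone, lies opposite Hvcn1, the voltage-gated proton channel that phagocytes use during the oxidative burst. It had 3420.1, 3507 and 3048 CPM in KO M1, 3396, 3767 and 4554 CPM in WT M1, 9336, 6758 and 7366 CPM in KO M0, and 9765, 8867 and 13225 CPM in WT M0. The WT M0 libraries were the most spread, with a coefficient of variation (CV) of 21.7%, the highest of the 130 rows in that group.

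The other low ratios were those of Gm16982 (inside the clathrin adaptor gene Ap2a2, -1.11), Abi3 (opposite Zfp652, with Phospho1 and Gngt2, -1.02) and Mtif3 (opposite Gtf3a, which drives transcription of 5S ribosomal RNA genes, -1.02). Next, lower in M1 by less than 2-fold, were 4931431C16Rik (over the start of the peroxisomal oxidase gene Acox3, -0.91), 0610039K10Rik (over the start of Serinc3, a retrovirus restriction factor in humans, -0.81), Rrp8 (opposite the integrin-linked kinase gene Ilk, -0.76), Gm10677 (inside the adhesion gene Cadm1, -0.72) and Mrps25 (a mitochondrial ribosome gene opposite the nuclear receptor gene Nr2c2, -0.69). In all of these rows M1 and M0 libraries did not overlap.

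Most of the rows, 96, lay within 2-fold. The 8 with ratios nearest 0 on the TMM scale were Rmi1 (opposite Hnrnpk), Capn12 (opposite Actn4), Ahsa2 (opposite Usp34), Gpld1 (opposite Mrs2), Eml5 (opposite Zc3h14), Plppr3 (opposite Ptbp1), Tmem206 and 4933433G19Rik (opposite Ptdss1). Rmi1, a gene of the complex that dissolves crossed DNA strands, averaged 1704 ± 129 CPM in KO M1, 1746 ± 244 in WT M1, 1706 ± 55.9 in KO M0 and 1743 ± 71.3 in WT M0. With library size alone these 8 rows stood at -0.46 to -0.54, near the shift of the median of all tested rows.

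Of the other rows within 2-fold and above 0, those opposite genes of RNA processing and translation were Crbn (Trnt1, 0.88), Etohd2 (Tut7 and Isca1, 0.87), Serhl (Rrp7a, 0.79), Eme1 (Lrrc59 and Mrpl27, 0.67), Ptcd1 (Bud31, 0.55), Dnajc19 (Fxr1, 0.44), Gm12992 (Srsf4, 0.34), Twnk (Mrpl43, 0.32) and Rrnad1 (Mrpl24, 0.14). Opposite genes of protein folding, ubiquitin and turnover were Loxl3 (Htra2, 0.91), Nkiras1 (Ube2e1 and Rpl15, 0.69), Gm10814 (Capn1, 0.65), Bace1 (Rnf214, 0.44), Acat3 (Tcp1, 0.43), Snhg14 (Ube3a, 0.20) and Cntd1 (Becn1 and Coa3, 0.19). Mitochondrial and metabolic opposite genes were those of Inpp5e (Pmpca, 0.92), Tvp23a (Nubp1, 0.51), Ccdc189 (Phkg2, 0.48), 4930506C21Rik (the pyruvate carrier gene Mpc1, 0.52) and Map3k15 (Pdha1, 0.28).

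Membrane, traffic and cytoskeletal opposite genes were those of Ctu2 (the mechanosensitive channel gene Piezo1, 0.80), B3gat2 (Smap1, 0.64), Far2 (Ergic2, 0.58), F420014N23Rik (Pip4k2c, 0.58), Prickle3 (Plp2, 0.57), Ppt1 (Cap1, 0.45), Lrrc71 (Arhgef11, 0.31), Clvs1 (Asph, 0.22), Agbl5 (Ost4, 0.14) and Msmp (Rgp1, 0.12). Gm19897, over the deacetylase gene Sirt2, stood at 0.10. Gadd45gip1 stood at 0.67. The rows Kdm1b (Dek, 0.37), Rad9a (Ppp1ca, 0.35), Sdr39u1 (Khnyn, 0.31), Yipf2 (Carm1, 0.07) and Doc2a (Ino80e, 0.06) lay opposite genes of chromatin, RNA or signalling. The rest above 0 were Myo1h (Kctd10, 0.65), Iqcg (Lrch3, 0.65), Dnajc14 (Ormdl2, 0.29), Tmod1 (Tstd2, 0.25), Ormdl2 (Dnajc14, 0.21), Vps26b (past Thyn1, 0.19), Tmem198b (Mmp19, 0.17), C530005A16Rik (Ccdc17, 0.10), Zeb2 (Zeb2os, 0.10) and Smim1 (Lrrc47, 0.06).

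Below 0 and within 2-fold were further rows opposite genes of transcription and chromatin, namely Cog5 (Hbp1, -0.12), Cd247 (Pou2f1, -0.12), Rfxank (Nr2c2ap, -0.21), Samd11 (Noc2l, -0.23) and Rpgrip1 (Supt16, -0.26). Rows opposite genes of signalling or transport were A230103J11Rik (Tnpo2, -0.16), Ppp2r1b (Sik2, -0.30), Pigf (Rhoq, -0.44), D330041H03Rik (the lipid transporter gene Abca3, -0.46), Hbp1 (Cog5, -0.53) and Ddx49 (Homer3, -0.59). The others were 2610020C07Rik (Gspt1, -0.06), Mmp24 (BC029722, -0.10), Bcap31 (past Slc6a8, -0.14), Cerkl (the α4 integrin gene Itga4, -0.17), Tnk1 (Plscr3, -0.18), Trp53bp1 (Tubgcp4, -0.22), Jmjd8 (the ubiquitin ligase gene Stub1, -0.22), Pkd2l2 (Fam13b, -0.32), Cln3 (Apobr, -0.38) and Stab1 (Nt5dc2, -0.47).

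The 14 gene lists for macrophage programs were chosen with earlier results of these data known, so matches to them are only described. Of these lists, 7 held 1 of the 130 rows each, by the row's own symbol or by its opposite gene. These were Rab5if of the lysosome and endosome list (row Sla2, 2.01), Tmem140 of the interferon list (row 3110062M04Rik, 1.66), Il18bp of the cytokine list (row Numa1, 2.73), Nfkb2 of the pattern recognition list (row Psd, 2.17), the scavenger receptor gene Stab1 (-0.47), the actin regulator gene Cap1 (row Ppt1, 0.45) and the transcription factor gene Zeb2 (0.10). The other 7 lists, among them those for ribosomes, oxidative phosphorylation, glycolysis and redox genes, held none. The names that the rule leaves out include genes on these lists. They are Prdx5 (redox), Gfm2 (mitochondria), Ddb2 (cell cycle), and Pltp and Fdft1 (lipids). Nothing is therefore read from a list that held none. Over all tested rows the median was -0.03.

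A pair of rows on opposite strands did not always go the same way. Where the opposite gene's own row averaged 100 counts or more, 14 of 24 pairs had the same sign of the M1 to M0 ratio on the TMM scale. The Tor1aip2 row stood at 1.56 and that of Tor1aip1 at 1.99, and the Krr1 row at -1.38 and that of Glipr1 at -0.35. In the Cln3 row, of a gene for a lysosomal membrane protein, the ratio was -0.38, against 3.99 for its opposite gene Apobr. The Tctn1 row stood at -1.34 and that of Hvcn1 at 0.05, and the Zeb2 row at 0.10 and that of its antisense RNA Zeb2os at -1.51.

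The knockout was compared with wild type in each state, which the rule did not use. In M1 no member was called by edgeR's quasi-likelihood test at an adjusted p under 0.05 (0% of the 2333 tested rows were), and in M0 none either (0.0429% of tested rows). Over both states there was again no member called (0.0429% of tested rows), and DESeq2 and limma-voom called 0 of the 130 in each comparison. At an unadjusted p under 0.05 were 18 members in M1 (13.8%, against 7.03% of tested rows), 16 in M0 (12.3%, against 6.47%) and 22 over both states (16.9%, against 7.42%).

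The intervals were narrow. The median standard error of the log2 fold change was 0.11 in M1 and 0.11 in M0 for these rows, against 0.46 and 0.43 over all tested rows. The 95% interval lay within a 1.5-fold difference in either direction for 129 of the 130 rows in M1 and 124 in M0, and within 2-fold for all 130 in both. Fold changes ran from -0.31 to 0.46 in M1 and from -0.44 to 0.46 in M0. The 3 KO libraries lay above the 3 WT libraries in 9 rows in M1 (6.92%, against 5.96% of tested rows) and below in 6 (4.62%, against 4.84%). In M0 they lay above in 11 (8.46%, against 6.52%) and below in 7 (5.38%, against 5.40%), so these shares were close to the background.

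**Figure D5:**
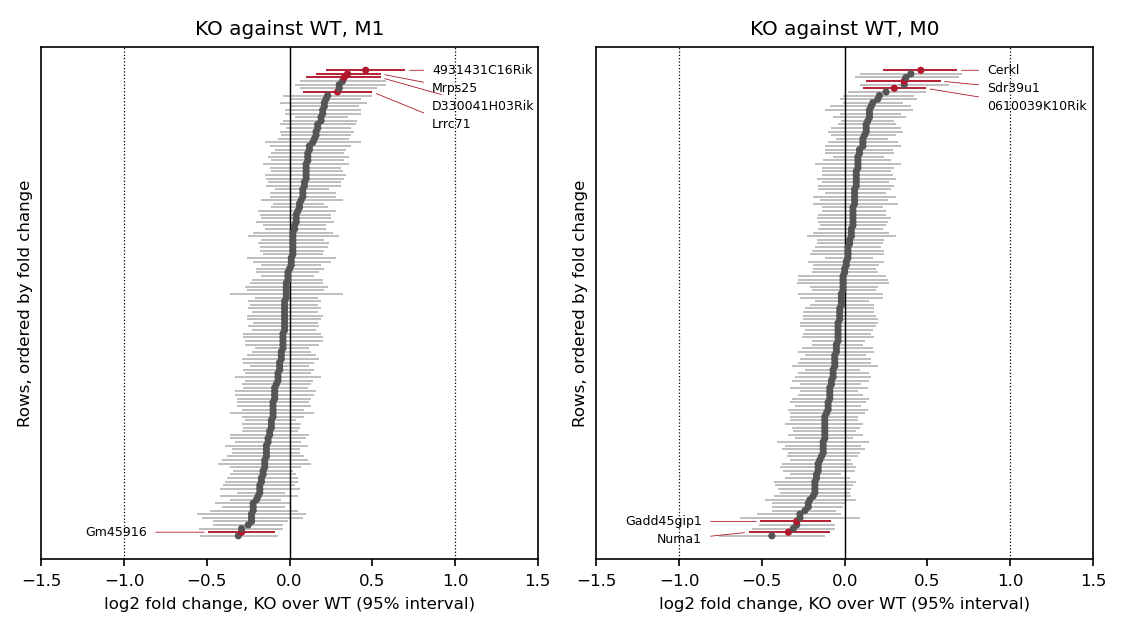
Log2 fold change of KO over WT (points) with its 95% interval (lines) for each of the 130 rows, in M1 and in M0, ordered by fold change. Dotted lines mark 2-fold differences and the 5 rows with the smallest p are red, and all intervals lie within the dotted lines.

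In M1 the smallest p belonged to the 4931431C16Rik row, opposite Acox3. It had 1159, 1574 and 1678 CPM in KO M1, against 1101, 1172 and 935 CPM in WT M1. The groups overlapped by 1 library, and the log2 fold change was 0.46 (SE 0.12, 95% interval 0.22 to 0.70, edgeR adjusted p = 0.290). Without KO M1 replicate 1, the KO library that overlaps, the row was called (log2 fold change 0.58, adjusted p = 0.0435). Mrps25 had 2918, 3409 and 3590.2 CPM in KO M1, against 2536, 2854 and 2369 CPM in WT M1, with no overlap and a log2 fold change of 0.35 (SE 0.09, interval 0.16 to 0.55, edgeR adjusted p = 0.290). D330041H03Rik (0.33), Lrrc71 (0.29) and Gm45916 (-0.29) followed, with edgeR adjusted p from 0.513 to 0.525.

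In M0 the smallest p belonged to the Cerkl row, of a ceramide kinase-like gene whose last exon overlaps that of Itga4. It had 2392, 3062 and 2676 CPM in KO M0, against 2055, 2168 and 1703 CPM in WT M0. All KO libraries lay above all WT libraries, and the log2 fold change was 0.46 (SE 0.11, interval 0.23 to 0.68, edgeR adjusted p = 0.260). The 0610039K10Rik row, opposite Serinc3, had 8856, 10534 and 9033 CPM in KO M0, against 8081, 7904 and 7106 CPM in WT M0 (log2 fold change 0.30, SE 0.09, edgeR adjusted p = 0.409). Sdr39u1, opposite Khnyn, averaged 1518 ± 195 CPM in KO M0 and 1185 ± 29.9 CPM in WT M0 (log2 fold change 0.36, edgeR adjusted p = 0.409). Gadd45gip1 (-0.29) and Numa1 (-0.34) followed, at an edgeR adjusted p of 0.587 each, with overlapping groups.

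Over both states the smallest p values were those of Cerkl (log2 fold change 0.32, interval 0.15 to 0.48), Mrps25 (0.25, 0.12 to 0.39), 4930404N11Rik (-0.30, -0.46 to -0.13) and Sdr39u1 (0.28, 0.12 to 0.44), each at an edgeR adjusted p of 0.219, and 4931431C16Rik (0.27, 0.10 to 0.43, edgeR adjusted p = 0.266). The 4930404N11Rik row had 6148, 5574 and 5571 CPM in KO M1, against 6690.1, 5833 and 8849 CPM in WT M1, and 7977, 7743 and 7033 CPM in KO M0, against 8670.0, 8486 and 10625 CPM in WT M0. The highest level in each WT group was that of replicate 3. This row was called without WT M1 replicate 2 (log2 fold change -0.38, adjusted p = 0.0163) and with no low-count filter (-0.30, edgeR adjusted p = 0.00647). With no filter the Tctn1 row was called too, in M0 (log2 fold change -0.45, edgeR adjusted p = 0.00366) and over both states (-0.34, 0.00138), where the filtered fit gave an edgeR adjusted p of 0.587 and 0.425. The cause of that difference was not tested.

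The interaction asked whether the M1 to M0 ratio differed between KO and WT. No member was called by edgeR (0% of tested rows), 12 had an unadjusted p under 0.05 (9.23%, against 6.17% of tested rows), and DESeq2 and limma-voom called 0 members. The sign of the ratio was the same in both genotypes in 120 rows, and the median difference between them was 0.12 in size. The smallest p belonged to Gm16712, opposite Ebi3 and Yju2. Its log2 ratio of M1 to M0 was 1.84 in KO and 2.42 in WT, an interaction of -0.58 (SE 0.18, interval -0.96 to -0.20, edgeR adjusted p = 0.605). With library pairs of the same genotype and number as a replicate block, this row was called (-0.57, edgeR adjusted p = 0.0248), and the labels do not say whether such pairs share an animal. The largest gap was that of Psd, opposite Nfkb2, at 1.87 in KO and 2.47 in WT (interaction -0.60, SE 0.21, edgeR adjusted p = 0.627). Psd was called without KO M0 replicate 1, the lowest KO M0 library of that row (interaction -0.75, adjusted p = 0.0339). D730005E14Rik (-0.55), 0610039K10Rik (-0.40) and 4930506C21Rik (0.41) followed, with edgeR adjusted p from 0.605 to 0.627. The interval of the interaction lay within 1.5-fold for 107 rows and within 2-fold for 129.

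Replicates of these rows lay close together. The median CV over 3 libraries was 7.49% in KO M1, 8.41% in WT M1, 6.53% in KO M0 and 6.64% in WT M0, against 24.3% to 29.3% over all tested rows, where counts are lower. Counting error alone would give a median of 3.28% to 3.37%. The highest CV was 26.4%, of D730005E14Rik in KO M0, where replicate 1 was the low library. Replicate libraries correlated at 0.974 to 0.991 across the 130 rows on the log2 CPM scale and at 0.884 to 0.937 across tested rows, which are not independent replicates.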

How the data were processed

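For 12 libraries of mouse macrophages the authors deposited raw counts by gene symbol, whole numbers without normalization, per the file headers. TruSeq libraries that keep the strand were prepared from polyadenylated RNA, per the labels' protocols. Trimmomatic, FastQC, HTSeq, DESeq2 and mm10 are listed per the submitters' processing notes, while an aligner and the strand setting of the counting are not given in the sources used here. Library totals were 372878 to 585465 counts.

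The members, gene lists and tests were chosen with earlier results of these data known. Low rows were removed with filterByExpr and 2333 were tested, with TMM factors and a robust quasi-likelihood fit of the 4 groups in edgeR 4.0.16 under R 4.3.3. Adjusted p-values are Benjamini-Hochberg values across the tested rows. Standard errors and 95% intervals were worked back from the test statistic. DESeq2 1.42.0, limma 3.58.1, other scales, no filter, blocks and leaving out each library were alternatives. The labels number libraries within a genotype and do not say that a number marks an animal, so no block was used in the reported fits. Intervals cover the spread between libraries and counting, and without molecular identifiers, reads may be copies of 1 molecule. Even numbers made up 60.9% of the table's counts from 1 to 12 and 47.5% of the members' counts.

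Named rows were the 20 highest by count, the 12 highest and 12 lowest M1 to M0 ratios, the 8 nearest 0, the 5 smallest p of each genotype comparison, those at the edges of the rule and up to 8 without an opposite-strand exon. The other members are named with their opposite genes only. For 2 members the opposite gene is not reported here. Opposite genes came from GENCODE M21 at an overlap of 20 bases, or RefSeq GRCm38.p6. Where several qualified, the gene with the longest overlap is named, and further genes are named for some rows only.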

Additional observations from a re-analysis of the deposited data

How the results depend on the processing

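The number of members called by edgeR was 0 in each genotype comparison and stayed 0 with DESeq2's size factors, library size alone, DESeq2, limma-voom and the replicate block by number. With no low-count filter it was 1 in M0 and 2 over both states. Leaving out 1 library gave 0 to 1 in M1, over both states and for the interaction, and 0 in M0. The number of tested rows called was 1 in M0 and 1 over both states, and 0 otherwise. In M0 it was 0 with library size alone, DESeq2, limma-voom or the replicate block by number, 4 with no filter and 0 to 2 without a library. In M1 it was 0 to 1 without a library. Over both states it was 0 with limma-voom, 5 with no filter and 0 to 2 without a library. For the interaction it was 3 with no filter and 0 to 3 without a library. Same-numbered libraries correlated at -0.03 to 0.15 in their deviations from the group means, with 1 of 18 pairs over 0.1. The 6 pairs of the same genotype stood at 0.03 to 0.10 over all tested rows and at 0.19 to 0.29 over the members alone, so whether the numbers pair libraries within a genotype is not settled. With the replicate block by genotype and number, 3 rows and 1 member, Gm16712 (interaction -0.57, edgeR adjusted p = 0.0248), were called for the interaction, and 0 rows over both states with limma-voom. All 20 named genotype fold changes kept their sign in every alternative run. With library size alone the members' median M1 to M0 ratio was -0.18, and 15 were at least 2-fold lower. A limit of 1.5-fold gave 44 higher and 13 lower. Without a library 26 to 27 were at least 2-fold higher, 5 to 7 lower, and the median was 0.28 to 0.34. The rule gave 167 rows at a mean of 400, 106 at 600 and 127 to 134 without a library. An opposite-strand exon was found in 115 to 118 of 124 rows under other overlap limits. The lowest count of a member in a library was 115, so counting error is a smaller limit here than for the other tested rows.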
